A study of Mus musculus with 8 samples.

Results

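The transcription factors that give the gut epithelium its intestinal identity were followed in sorted Paneth cells with and without Mll1: Hnf4a and Hnf4g, Cdx1 and Cdx2, Foxa1, Foxa2 and Foxa3, and Isx. They were chosen by symbol, and each symbol matched 1 row, so that 8 of the 53801 genes in the count table are described, in all 8 libraries. All 8 genes passed the filter on low counts and were among the 13439 genes tested.

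Hnf4a and its paralogue Hnf4g are nuclear receptors that hold open enhancers of enterocyte genes, among them genes of fat absorption and the brush border. Cdx1 and Cdx2 are caudal-type homeobox proteins that set the gut apart from the stomach, and loss of Cdx2 lets gastric genes come on in the intestine. Foxa proteins are pioneer factors of the endoderm, which can bind closed chromatin, and Foxa1 and Foxa2 are needed for goblet and enteroendocrine differentiation. Isx is an intestinal homeobox gene that is regulated by Cdx2 and by retinoic acid and that represses genes of vitamin A uptake.

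Mll1, encoded by Kmt2a, is a histone methyltransferase that acts on lysine 4 of histone H3. All mice carried Lgr5-EGFP-IRES-CreERT2, in which the promoter of the stem cell gene Lgr5 drives a tamoxifen-inducible Cre, and a β-catenin allele that is stabilised by recombination (β-catGOF). Controls were β-catGOF; Mll1+/- mice, which had lost 1 copy of Mll1, and knockouts were β-catGOF; Mll1-/- mice, with 4 mice of each genotype by the study's account. The titles of control 4 and knockout 4 hold 1 animal number between them, so that 7 numbers stand for the 8 libraries, and the labels do not say how this arose. The labels give the Mll1 genotype, β-catGOF comes from the text on the study, and its sorting method names Mll1flox littermates without that allele and does not say which mice shared a litter. Mice were 4 to 6 weeks old at induction, received tamoxifen on 3 days, and were dissected 10 d later. Viable EpCAM+ Cd24+ crypt cells were sorted as Paneth cells, and polyadenylated RNA of each small pool was copied and amplified by PCR.

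Totals on genes were between 13037832 and 14380240 counts. Levels are given as normalized CPM, that is, read counts scaled to a common library size by the TMM method, on which 3 counts correspond to 0.172 to 0.352. PCR copies were counted as separate reads, so such limits cover counting error only. All 10 Paneth markers passed the filter, and their summed level was 266153 to 524001 normalized CPM in controls and 242352 to 747639 in knockouts. Knockout 3 stood apart, with a TMM factor of 0.632 against 0.822 to 1.34 in the other 7 libraries and 19662 genes with a count against 22623 to 26074. The label numbers of the libraries fall into 2 runs, called library sets here, and replicates 1 and 2 of each genotype belong to the first. Kmt2a had 719, 469, 268 and 284 counts in controls 1 to 4 and 523, 447, 328 and 468 in knockouts 1 to 4. Its log2 fold change was -0.062 (SE 0.24, adjusted p = 0.995 in edgeR's quasi-likelihood test). Within the first library set the log2 difference of Kmt2a was -0.54, and within the second 0.53. Counts over the whole gene do not measure the loss of a part of it, so the genotypes could not be checked from this gene. The study reports a staining in which knockout crypt cells, Paneth cells among them, lacked Mll1 when cells were sorted. In bulk samples, fewer cells of a type and less RNA per cell cannot be told apart.

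None of the 8 factors was called different between the genotypes in edgeR's quasi-likelihood test. A gene was called where its adjusted p was 0.05 or lower and its log2 fold change was 0.5 or more in size, which held for 0.186% of all tested genes, and for 0.0298% in the lower direction. At an unadjusted p below 0.05, Foxa1 and Hnf4a were lower in knockouts, 2 of 8 factors beside 6.88% of all tested genes in either direction and 2.53% in this one. The log2 fold change was below 0 for 7 of the 8 factors, beside 49.1% of all tested genes, and its median was -0.52, beside 0.0085 over all tested genes. DESeq2's Wald test, limma-voom with quality weights, and edgeR without knockout 3 each called 1 factor, which was Foxa1 every time. These fits also called more genes in all: 138 and 101 of 13439, and 152 of 14086 without knockout 3. On all libraries edgeR's quasi-likelihood test called 25. With the library set as a block, 3 factors had an unadjusted p below 0.05. Cdx1 was the added one, at 0.0414 in edgeR's quasi-likelihood test (adjusted p = 0.594). With a library left out, 1 to 3 factors had an unadjusted p below 0.05. Hnf4a had one of 0.0683 without control 1, 0.0537 without control 2 and 0.0839 without knockout 1 in edgeR's quasi-likelihood test. On library totals without composition factors none of the 8 passed, with 6 factors below 0 and a median of -0.22, beside a median of 0.25 over all tested genes. The median of the factors was -0.40 without knockout 3.

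**Figure D1:**
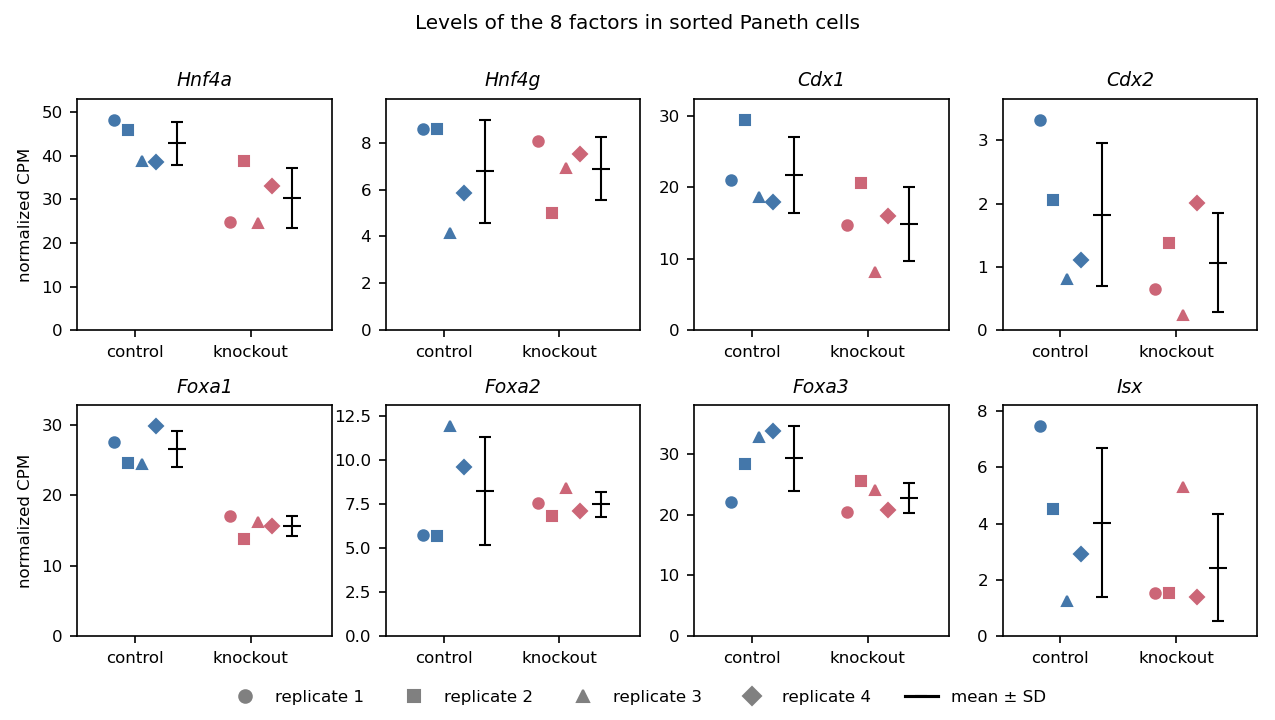
Normalized CPM (vertical axis, from 0) of each factor in the 4 controls (blue) and the 4 knockouts (red), with a marker shape per replicate and the mean and SD at the right of each group. Only for Foxa1 do the genotypes not overlap, with 24.4 to 29.8 in controls and 13.8 to 17.1 in knockouts.

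Foxa1 was the factor with the smallest p-value. Foxa1 (ENSMUSG00000035451, chr12:57540628-57546916 on the minus strand of GRCm38) had 441, 310, 272 and 378 counts in controls 1 to 4 and 287, 240, 138 and 259 in knockouts 1 to 4. Its level was 27.6, 24.6, 24.4 and 29.8 normalized CPM in controls and 17.1, 13.8, 16.2 and 15.7 in knockouts. Each knockout was below each control, a separation in this direction that 1.93% of all tested genes showed. The means were 26.6 ± 2.60 and 15.7 ± 1.39 (SD, n = 4 each), a knockout-to-control ratio of 0.589 with a 95% interval of 0.458 to 0.757. The log2 fold change was -0.76 (SE 0.17), and the adjusted p was 0.15 in edgeR's quasi-likelihood test after Benjamini-Hochberg adjustment. Among the 13439 genes tested Foxa1 ranked 58 by p, and 15 among the genes lower in knockouts. An exact two-sided permutation test of the normalized CPM gave p = 0.0286, the smallest that 4 against 4 libraries allow.

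The difference in Foxa1 was of the same size in both library sets. In the first set the mean level was 26.1 normalized CPM in controls and 15.4 in knockouts, a log2 difference of -0.76. In the second set it was 27.1 and 16.0, again a log2 difference of -0.76. DESeq2's Wald test gave an adjusted p of 0.00447, limma-voom 0.0366, and edgeR's quasi-likelihood test without knockout 3 gave 0.0424. In the other 15 alternatives, all of them edgeR fits, the adjusted p lay between 0.109 and 0.819 and the log2 fold change between -0.81 and -0.53.

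Levels of markers of other cell types are given beside Foxa1. The summed level of 8 enteroendocrine markers, all of them among the genes tested, was 215 to 818 normalized CPM in controls and 45.3 to 214.8 in knockouts, with the lowest in knockout 2 and the ranges all but meeting. The hormone Sst, which is not among these markers, ranged from 113 to 504 normalized CPM in controls and from 0.117 to 494 in knockouts. Its means were 349 and 130. The 5 tuft markers summed to 200 to 460 in controls and 82.9 to 297 in knockouts. The 5 stem cell markers summed to 688 to 1488 in controls and 253 to 913 in knockouts. The tuft and stem ranges overlapped between the genotypes, and for the 8 goblet markers they did so widely, at 9263 to 17746 in controls and 7871 to 18981 in knockouts. None of these markers was at 0 in all libraries, and their part in the level of Foxa1 was not tested.

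Foxa3, a Foxa protein best known from liver and metabolic genes, was the most abundant factor per exon length. Foxa3 (ENSMUSG00000040891, chr7:19013284-19023538, minus strand) stood at 22.1, 28.3, 32.7 and 33.7 normalized CPM in controls and 20.4, 25.5, 24.1 and 20.8 in knockouts. Control 1 lay among the knockouts, and the other 3 controls were above all 4 of them. The means were 29.2 ± 5.29 and 22.7 ± 2.50 (SD, n = 4 each), with a log2 fold change of -0.36 (SE 0.18, 95% interval -0.76 to 0.038) and an adjusted p of 0.785 in edgeR's test. The log2 difference was -0.14 within the first library set and -0.56 within the second.

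Foxa2, which acts together with Foxa1 in the gut, had means that lay within the spread of the controls. Foxa2 (ENSMUSG00000037025, chr2:148042877-148046969, minus strand) stood at 5.77, 5.71, 11.9 and 9.63 normalized CPM in controls and 7.60, 6.83, 8.46 and 7.10 in knockouts. The controls of the second library set were above all knockouts and those of the first set below all of them. The log2 fold change was -0.14 with a 95% interval of -0.76 to 0.48 (adjusted p = 0.985 in edgeR's test). Within the first set the log2 difference was 0.33, and within the second -0.47.

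Within a library, the ratio of 2 factors per exon length does not depend on how libraries are scaled. The log2 ratio of Foxa2 to Foxa1 was -1.26 ± 0.55 in controls and -0.57 ± 0.11 in knockouts (SD, n = 4 each), a difference of 0.69 (exact two-sided permutation p = 0.0857, 0.286 after adjustment over 4 ratios). The log2 ratio of Foxa3 to Foxa2 was 2.09 ± 0.35 in controls and 1.81 ± 0.21 in knockouts (exact permutation p = 0.286, adjusted 0.381). Of the summed Foxa level per exon length, Foxa3 made up 55.3% ± 3.60 in controls and 58.5% ± 4.03 in knockouts. Foxa1 made up 31.5% ± 5.26 and 24.9% ± 2.93, and Foxa2 13.2% ± 3.35 and 16.6% ± 1.32. The order Foxa3, Foxa1, Foxa2 thus held in both genotypes, and the summed Foxa level was 25.8 ± 3.80 normalized CPM per kb in controls and 19.0 ± 1.08 in knockouts.

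Windows of 250 bases before annotated start sites were read from RefSeq's promoter table on GRCm38.p6 for 6 of the factors (9 windows). Hnf4g had no window to read. Windows on the chromosome that holds Cdx1, and entries of another length, were left out. They were searched on both strands for the Foxa motif TGTTTAC, the Cdx motif TTTATNG, the Hnf4 motif CAAAGTCCA and the Tcf/Lef motif CTTTGAT, and on the strand of the gene for TATAAA. The windows of Foxa1, Cdx2 and Foxa3 are shown because they were the ones in which a motif was found. Capitals mark the Foxa or Cdx match, which in all 3 is written as the reverse complement of the motif given above. The windows are chr12:57546112-57546361 for Foxa1, chr5:147307250-147307499 for Cdx2 and chr7:19023540-19023789 for Foxa3, all on the minus strand and written 5′ to 3′ along it. The Foxa1 window lies inside the span of the counted gene given above and holds 10 of its exon bases. The Cdx2 window holds 21 exon bases of Cdx2, and the Foxa3 window holds 0 of Foxa3.
Foxa1: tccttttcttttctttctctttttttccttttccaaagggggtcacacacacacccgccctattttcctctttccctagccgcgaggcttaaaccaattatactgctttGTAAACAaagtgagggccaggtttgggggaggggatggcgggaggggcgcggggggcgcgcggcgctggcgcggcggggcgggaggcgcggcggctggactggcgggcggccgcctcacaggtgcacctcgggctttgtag
Cdx2: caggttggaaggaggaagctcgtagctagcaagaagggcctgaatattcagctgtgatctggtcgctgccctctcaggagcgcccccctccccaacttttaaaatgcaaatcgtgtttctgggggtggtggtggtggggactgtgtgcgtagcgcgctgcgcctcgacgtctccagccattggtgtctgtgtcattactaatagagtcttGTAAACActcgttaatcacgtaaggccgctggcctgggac
Foxa3: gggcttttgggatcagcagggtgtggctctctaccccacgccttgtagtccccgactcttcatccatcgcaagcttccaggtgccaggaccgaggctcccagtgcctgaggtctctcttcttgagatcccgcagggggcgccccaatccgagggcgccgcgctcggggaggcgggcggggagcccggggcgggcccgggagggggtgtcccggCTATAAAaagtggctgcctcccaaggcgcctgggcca
The Foxa motif was in 2 of the 9 windows and in 3.17% of all 32851 windows kept, and its first base was base 110 of the Foxa1 window and base 211 of the Cdx2 window. The Cdx motif was in 1 of the 9 windows and in 9.81% of all. In the Foxa3 window it began at base 214 and overlapped a TATAAA that began at base 215, and TATAAA was in 7.59% of all windows. The Hnf4 and Tcf/Lef letters were in none of the 9 windows and in 0.384% and 3.21% of all. The Foxa1 window held 21 CpG dinucleotides, more than 83.7% of all windows, while the Foxa3 window held 18, the Cdx2 window 13 and the Isx window 2, beside a median of 6. A match describes these letters only, and binding was not measured.

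Hnf4a was the most abundant of the factors on the scale of normalized CPM, above 92.4% of all tested genes. Hnf4a (ENSMUSG00000017950, chr2:163506808-163572910, plus strand) had 769, 578, 431 and 489 counts in controls 1 to 4 and 418, 676, 209 and 544 in knockouts 1 to 4. Its level was 48.2, 45.9, 38.7 and 38.6 normalized CPM in controls and 24.8, 38.8, 24.6 and 33.0 in knockouts. Of the knockouts, 3 were below every control, and knockout 2 lay between the controls. The means were 42.8 ± 4.94 and 30.3 ± 6.90 (SD, n = 4 each), with a log2 fold change of -0.50 (SE 0.19, 95% interval -0.92 to -0.080). The unadjusted p was 0.0235 and the adjusted p 0.607 in edgeR's quasi-likelihood test, and an exact two-sided permutation test gave p = 0.0857. The log2 difference was -0.56 within the first library set and -0.43 within the second, with both knockouts below both controls in each.

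Hnf4g, the paralogue that can stand in for Hnf4a in the adult gut, was at a similar mean level in both genotypes. Hnf4g (ENSMUSG00000017688, chr3:3508030-3658052, plus strand) stood at 8.59, 8.57, 4.13 and 5.84 normalized CPM in controls and 8.08, 5.00, 6.93 and 7.52 in knockouts. The groups overlapped fully, and the log2 fold change was 0.017 with a 95% interval of -0.63 to 0.66 (adjusted p = 0.997 in edgeR's test). Within the first library set the log2 difference was -0.39, and within the second 0.54. Hnf4a made up 77.9% ± 4.13 of the summed Hnf4 level per exon length in controls and 70.0% ± 7.97 in knockouts. The log2 ratio of Hnf4a to Hnf4g was 1.83 ± 0.36 and 1.25 ± 0.59 (SD, n = 4 each), a difference of -0.58 (exact permutation p = 0.143, adjusted 0.286).

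Cdx1, which is restricted to the intestinal epithelium and responds to Wnt signals, made up most of the Cdx signal. Cdx1 (ENSMUSG00000024619) stood at 21.0, 29.4, 18.7 and 17.9 normalized CPM in controls and 14.7, 20.7, 8.11 and 16.0 in knockouts. Knockout 3 was the lowest library, and knockout 2 alone reached the range of the controls. The means were 21.8 ± 5.29 and 14.9 ± 5.19 (SD, n = 4 each), with a log2 fold change of -0.54 (SE 0.27, 95% interval -1.14 to 0.060) and an adjusted p of 0.786 in edgeR's test. Without knockout 3 the log2 fold change was -0.35. Within the library sets the log2 difference was -0.51 and -0.60, with both knockouts below both controls in each.

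Cdx2, the master regulator of intestinal identity, was the lowest of the 8 factors per exon length. Cdx2 (ENSMUSG00000029646, chr5:147300805-147307270, minus strand) had 53, 26, 9 and 14 counts in controls 1 to 4 and 11, 24, 2 and 33 in knockouts 1 to 4. The count of 2 in knockout 3 is under the floor of 3 counts. On the scale of normalized CPM the controls stood at 3.32, 2.06, 0.808 and 1.11 and the knockouts at 0.653, 1.38, 0.235 and 2.00, so that the groups overlapped. The log2 fold change was -0.74, and its 95% interval of -2.14 to 0.65 reaches to both sides of 0 (adjusted p = 0.916 in edgeR's test). It was -0.28 without control 1, -0.46 without knockout 3 and -1.21 without knockout 4. Within the first library set the log2 difference was -1.41, and within the second 0.23. Cdx1 made up 94.0% ± 3.39 of the summed Cdx level per exon length in controls and 95.2% ± 2.89 in knockouts, and at least 89.1% in each library. The log2 ratio of Cdx2 to Cdx1 was -4.09 ± 0.77 and -4.39 ± 0.79 (SD, n = 4 each; exact permutation p = 0.6, adjusted 0.6).

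Isx varied more between libraries of 1 genotype than any of the more abundant factors. Isx (ENSMUSG00000031621, chr8:74873173-74893506, plus strand) had 119, 57, 14 and 37 counts in controls 1 to 4 and 26, 27, 45 and 23 in knockouts 1 to 4. Its level was 7.46, 4.52, 1.26 and 2.92 normalized CPM in controls and 1.54, 1.55, 5.29 and 1.40 in knockouts. Knockouts 1, 2 and 4 lay close together and knockout 3 above 3 of the controls. The log2 fold change was -0.78 (SE 0.58, 95% interval -2.06 to 0.50, adjusted p = 0.902 in edgeR's test), -1.44 without knockout 3 and -0.29 without control 1. Within the first library set the log2 difference was -1.95, and within the second 0.68.

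Hnf4a, Cdx1 and Foxa1 were thus the factors whose knockouts were below the controls in both library sets, a pattern that 4.45% of all tested genes showed. For Hnf4g, Cdx2, Foxa2 and Isx the sets pointed in opposite directions, and with 2 libraries a genotype in each set these differences were not tested.

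**Figure D2:**
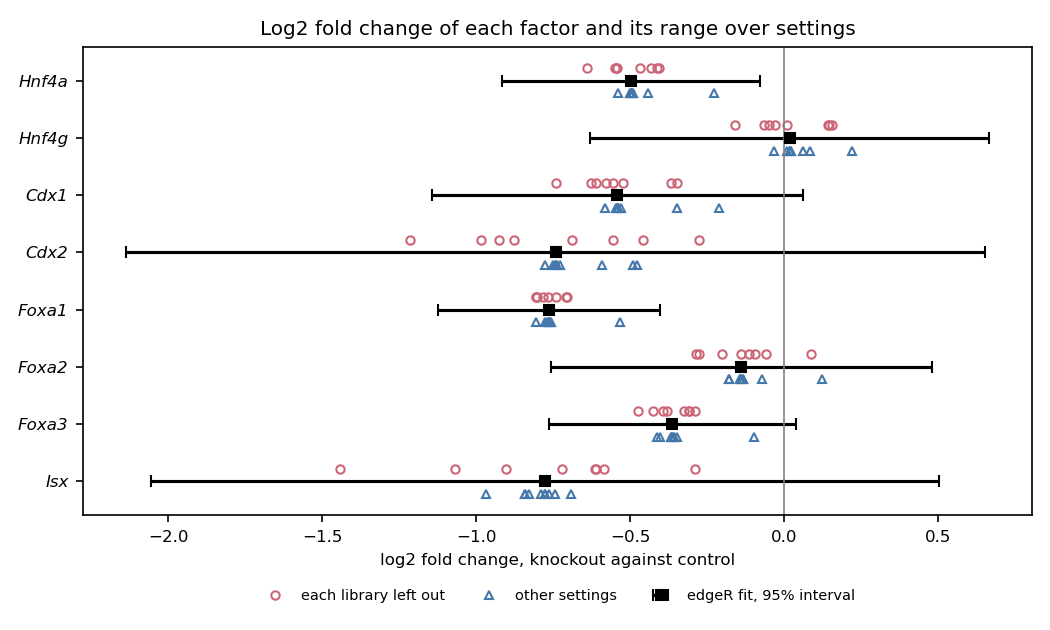
Log2 fold change of each factor, knockouts against controls (horizontal axis), from edgeR with its 95% interval (square and bar), with each of the 8 libraries left out (circles) and under the other settings (triangles). Only the intervals of Hnf4a and Foxa1 lie wholly below 0, and the symbols of Hnf4g and Foxa2 fall on both sides of 0.

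Compared per exon length, the order of the factors was the same in all 10 alternatives with another scaling or a library left out. Averaged over all 8 libraries, Foxa3 stood at 12.7 normalized CPM per kb of exon, Cdx1 at 10.5, Hnf4a at 7.57 and Foxa1 at 6.36. Below them came Foxa2 at 3.32, Hnf4g at 2.60, Isx at 1.81 and Cdx2 at 0.639. Foxa1 was above Foxa2 in all 8 libraries, with a ratio of at least 1.37. The other neighbours crossed: the higher of the pair was above the lower in 6 libraries for Foxa3 and Cdx1, for Foxa2 and Hnf4g, and for Hnf4g and Isx, and in 7 for the remaining 3 pairs. The places of such neighbours are therefore not set apart beyond the spread over libraries.

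Cdx4, a caudal-type gene of the embryo, had 0 counts in 5 libraries and at most 5 in the others.

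**Figure D3:**
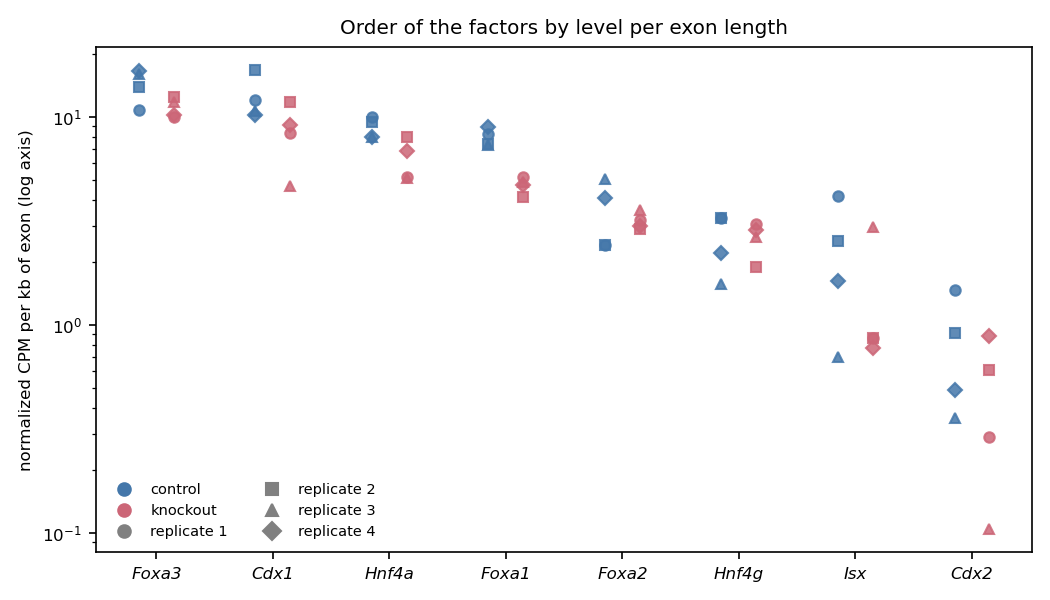
Normalized CPM per kb of exon (vertical log axis) of the 8 factors in descending order of their mean, with a point per library (controls blue, knockouts red, a shape per replicate). Foxa3 leads at a mean of 12.7 and Cdx2 closes the 8 factors at 0.639, and points of most neighbours overlap.

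Genes known to be regulated by the factors, brush border genes, gastric genes and other intestinal transcription factors were examined as lists. No gene of the 7 lists was called in edgeR's test at the limits above. In all lists together, the genes with an unadjusted p below 0.05 were lower in knockouts. On library totals without composition factors, 0 genes of the lists had such a p. With that scaling the median was 0.12 for the other transcription factors, with 4 of 11 below 0, and -0.13 for the brush border genes. It was -0.12 for the genes regulated by Cdx2, -0.35 for the lipoprotein and fatty acid genes and -0.71 for the genes that depend on Foxa1 and Foxa2, beside 0.25 over all tested genes.

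Of 12 lipoprotein and fatty acid genes regulated by Hnf4 factors, 9 were tested, 8 had a log2 fold change below 0, and the median was -0.72 beside 0.0085 over all tested genes. Without control 1 the median was -0.48, and the number of genes with an unadjusted p below 0.05, which was 3, became 1 without knockout 2 and 5 without knockout 3 or knockout 4. Fabp2, the intestinal fatty acid binding protein, stood at 38.7, 31.5, 42.3 and 30.8 normalized CPM in controls and 12.7, 13.6, 13.4 and 28.4 in knockouts. All 4 knockouts were below all controls, with knockout 4 close to them. The means were 35.8 ± 5.59 and 17.0 ± 7.62 (SD, n = 4 each), and the log2 fold change was -1.07 (SE 0.27, adjusted p = 0.279 in edgeR's test). DESeq2's Wald test gave Fabp2 an adjusted p of 0.0422, limma-voom 0.0294, and edgeR's test 0.0238 without knockout 4 and 0.00156 with no filter on low counts. Mttp, the transfer protein that loads lipid onto lipoproteins, and Apoc3, an apolipoprotein, were at -0.74 and -1.93 on the log2 scale. Both had an unadjusted p below 0.05, and their adjusted p-values in edgeR's test were 0.617 and 0.595. Apob, the structural protein of chylomicrons, had a log2 fold change of -1.19 without passing that limit. At 5 normalized CPM or more, the highest values of the list were 0.089 for Apoa1 and -0.17 for Acsl5, an enzyme that activates fatty acids.

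The 8 enterocyte markers, 5 of them among the genes tested and none at 0 in all libraries, summed to 105 to 290 normalized CPM in controls and 30.3 to 201 in knockouts. The lowest sum was that of knockout 3. Fabp1, Fabp2, Apoa1 and Apoa4 are on both lists, and the part of enterocytes in these differences was not tested.

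Of 18 brush border genes 17 were tested, and 12 had a log2 fold change below 0, with a median of -0.35. The 4 with an unadjusted p below 0.05 were all lower in knockouts: Vil1, the actin bundler villin, at -0.42, Myo1a, a microvillar myosin, at -0.62, Ush1c, a scaffold of microvillar tips, at -0.48, and the glucose transporter Slc5a1 at -0.77 on the log2 scale. Their adjusted p-values in edgeR's test were 0.589, 0.523, 0.672 and 0.662. Without control 2 the median was -0.12, and without control 1, control 2 or knockout 2 the number with an unadjusted p below 0.05 was 2. At 5 normalized CPM or more, the highest log2 fold changes were those of the peptidases Dpp4 at 0.35 and Mep1b at 0.32.

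Of 12 intestinal genes regulated by Cdx2, 10 were tested, 9 had a log2 fold change below 0, and the median was -0.40. Sis, the brush border sucrase-isomaltase, stood at 16.5 ± 9.67 normalized CPM in controls and 5.97 ± 5.48 in knockouts (SD, n = 4 each), with a log2 fold change of -1.44 (adjusted p = 0.671 in edgeR's test). Krt20, a keratin of mature epithelium, had a log2 fold change of -0.94, the guanylin receptor Gucy2c one of -0.32 and the goblet mucin Muc2 one of 0.19. Vil1, Mep1a and Muc2 are each on another list too, and Isx is itself a factor described above. The 2 genes repressed by Isx, both under 5 normalized CPM on average, had log2 fold changes of -0.35 for Scarb1 and -0.24 for Bco1, beside -0.78 for Isx.

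The 8 goblet and endocrine genes that depend on Foxa1 and Foxa2 were all tested, and none had an unadjusted p below 0.05. Such a p was reached by 3 of them without knockout 4, by 1 without knockout 1, by 1 with no filter on low counts and by 1 in limma-voom, all lower in knockouts, and in limma-voom all 8 were below 0 with a median of -1.29. Their median log2 fold change was -0.92, with 5 below 0. The endocrine hormones had the lowest values, -1.84 for Gcg and -1.43 for Sst, with standard errors of 2.19 and 1.92. Sst ranged from 113 to 504 normalized CPM in controls and from 0.117 to 494 in knockouts, so that the groups overlapped. Its means were 349 ± 179 and 130 ± 243 (SD, n = 4 each). The goblet genes Muc2 and Agr2 stood at 0.19 and 0.17 on the log2 scale. The median rests on control 3: without it the median was -0.10, with 4 genes below 0. It was -0.57 without knockout 2, and without knockout 3 it was -0.89, with all 8 genes below 0. Of the 5 genes with 10 counts in every library 2 were below 0, with a median of 0.079.

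Of 16 genes listed as gastric, 2 passed the filter. Barx1, Tff1 and Gkn2 had 0 counts in all libraries, and 6 of the 16, these 3 and Sox2, Gkn1 and Cldn18, had at most 3 counts in any library. Gif, the gastric intrinsic factor, stood at 9.46, 20.4, 19.0 and 17.8 normalized CPM in controls and 5.23, 5.34, 54.9 and 2.00 in knockouts. Knockout 3 was above all controls and the other 3 knockouts below all of them. Its log2 fold change was -0.018 over all libraries and -1.99 without knockout 3, with adjusted p-values of 0.998 and 0.0215 in edgeR's test. Gkn3 had a log2 fold change of -0.70 with means of 7.59 ± 3.26 normalized CPM in controls and 4.60 ± 3.40 in knockouts (SD, n = 4 each).

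Of 17 other intestinal transcription factors and antisense genes, not all of which are named here, 16 were matched to a row of counts and 11 were tested, 8 had a log2 fold change below 0, and the median was -0.041 (-0.30 without knockout 4 and 0.015 without knockout 2). Vdr, the vitamin D receptor, stood at 25.0 ± 10.2 normalized CPM in controls and 9.15 ± 6.37 in knockouts (SD, n = 4 each), which is -1.43 on the log2 scale (adjusted p = 0.629 in edgeR's test). Klf5, a zinc finger factor of crypt cells, had a log2 fold change of -0.43. At 5 normalized CPM or more, the highest values were 0.14 for Ehf, an epithelial Ets factor, and 0.090 for Tcf7l2, the Wnt effector of the crypt. The lists differ in their medians, but they share genes, and no test compared them.

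**Figure D4:**
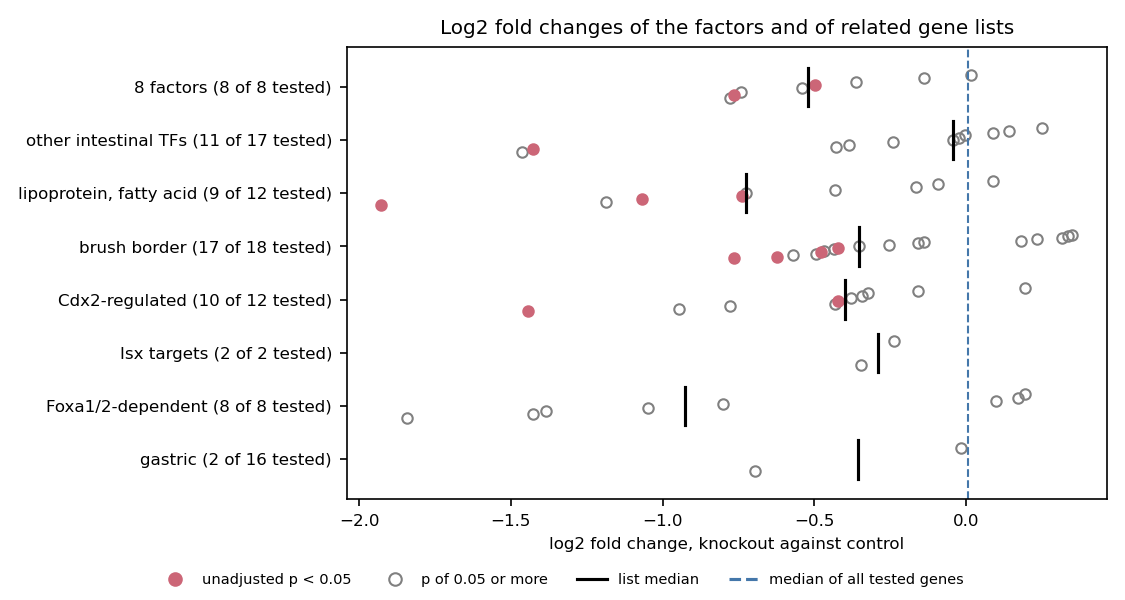
Log2 fold change, knockouts against controls (horizontal axis), of each tested gene of the 8 factors and 7 lists, with filled points for an unadjusted p below 0.05, a bar for each median and a dashed line at the median of all tested genes. All filled points lie below 0, and the medians run from -0.92 for the genes that depend on Foxa1 and Foxa2 (-0.10 without control 3) to -0.041 for the other transcription factors (-0.30 without knockout 4).

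For each of the 6 factors with at least 5 normalized CPM on average, the genes with the most similar pattern over the 8 libraries were sought among 4329 genes of at least 10 normalized CPM. Similarity was Pearson's r of log2(normalized CPM + 1). The points are the same 8 libraries for all genes and share their depth, scaling and genotype. Foxa1 was nearest to Qdpr (r = 0.95), which recycles the biopterin cofactor, to Cript (0.94) and to Onecut2 (0.93), another transcription factor of the endoderm. Hnf4a was nearest to Fam208a (0.94), a subunit of a silencing complex, and to Slc39a9 and Ahcyl2 (0.93 each). Cdx1 was nearest to Mier1, Cox6a1 and Dmbt1 (0.95 each), and Foxa3 to Abracl (0.96), Ing1 and Fam174b (0.93 each). Foxa2 was nearest to Yipf6 (0.95), Kif5b and Ramac (0.94 each), and Hnf4g to Mdp1, Znhit1 and Usp3 (0.86 each). Without knockout 3 all these r lay between 0.84 and 0.97. The genes were picked as the highest of 4329 over 8 points, and such a choice alone yields high r. The remaining libraries had also been used to pick them, so these r are no independent check. Among the factors themselves, the highest r was that of Hnf4a and Cdx1 at 0.86 (0.81 without knockout 3), and the lowest that of Hnf4g and Foxa2 at -0.76 (-0.78 without knockout 3).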

How the data were processed

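RNA of Paneth cells sorted by FACS was measured in 8 libraries and grouped by the genotype in the labels, and replicate numbers are names given here. The authors aligned reads to mm10 with GSNAP and counted them per gene with featureCounts 1.6.3 (bcl2fastq 2.19.1 before that) against Ensembl release 92. What they deposited are raw counts per gene. The sources used here do not give the strand setting, and no factor shares exon bases with another gene. Spike-in rows (92) entered neither totals nor tests, and 53620 genes had a symbol.

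From the counts, TMM factors and robust quasi-likelihood fits were computed with edgeR 4.0.16 (R 4.3.3) for genes past filterByExpr (minimum count 10, total 15). P-values were adjusted by the Benjamini-Hochberg method over all 13439 genes and measure the spread between the 4 libraries of each genotype. For single values, an exact two-sided permutation test over the libraries was used (scipy 1.17.1). Ratios used 0.5 added counts. Exon lengths are the summed exon bases deposited with the counts. The common biological coefficient of variation was 0.376. The functions were tested on simulated data.

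Alternatives were DESeq2's size factors and Wald test (DESeq2 1.42.0), upper-quartile factors, library sizes without the 50 most abundant genes, other filters, limma-voom (limma 3.58.1), edgeR's fit without robust estimation, a block for the library set, a false discovery rate of 10%, and each library left out. Library totals without composition factors, and values within each library set, were added after seeing the data. The factors, lists and tests were chosen with earlier results of these data known. Named from a list are the called genes or else the 2 highest and 2 lowest log2 fold changes at 5 normalized CPM or more. Mttp, Apoc3, Vil1, Ush1c, Scarb1, Bco1 and the gastric genes at low counts were named after their values were seen. No closer pair of libraries than sampling noise allows was found (smallest chi-square per degree of freedom 10.8). Single results on 2 genes of the lists are not given here.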

Additional observations from a re-analysis of the deposited data

Results flagged for a closer look

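Isx in knockout 3, at 5.29 normalized CPM, lay far from the other 3 knockouts at 1.40 to 1.55, and the gap was 0.96 of the group's range, above the 95% limit of Dixon's test for 4 values. In all, 24 groups of 4 libraries were examined in this way and 1 passed the limit, and chance gives about 1 in 20. Knockout 3 was also the library with the fewest genes with a count (19662) and the smallest TMM factor (0.632), and their part in the level of Isx was not tested.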

How the results depend on the processing

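Of the 8 factors, Hnf4a, Cdx1, Cdx2, Foxa1, Foxa3 and Isx kept a log2 fold change below 0 under every alternative fit that gave a value, though Cdx2 and Isx stood at 0.23 and 0.68 within the second library set. On library totals without composition factors, Hnf4a stood at -0.23, Cdx1 at -0.21 and Foxa3 at -0.099. Cdx2 gave no value where 10 counts were required in every library. Hnf4g turned to -0.0327 under upper-quartile factors, and ran from -0.16 to 0.15 with a library left out. Foxa2 ran from -0.28 to 0.0873 with a library left out (0.0873 without control 3) and was 0.12 on library totals, where the median of all genes moved to 0.25 and all 8 factors were below that median. The difference in the Cdx2 to Cdx1 ratio ran from -0.65 to 0.0578, the latter without control 1. The number of factors called was 1 by DESeq2's Wald test and by limma-voom, and 0 to 1 with a library left out. Over all genes the number called, 25, became 290 without a filter, 13 with 10 counts in every library, 138 by DESeq2's Wald test, 101 by limma-voom, 15 on library totals and 38 at a false discovery rate of 10% with no limit on the fold change. With a library left out it ran from 10 (without control 3) to 152 (without knockout 3). Among lipoprotein and fatty acid genes 1 was called without a filter, by DESeq2's Wald test and by limma-voom, and 0 to 1 with a library left out, and among gastric genes 0 to 1. No paired analysis was possible because the replicate numbers are names given in the order of the samples, the labels name no litter, and the genotypes have only 1 animal number of the labels in common, that of control 4 and knockout 4. Depth limits Cdx2 and Isx most, with 2 to 53 and 14 to 119 counts.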
